A study of Mus musculus with 36 samples.

Results

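The 10 genes described here mark the primitive streak, the presomitic mesoderm and the somites of the mouse embryo, and they were taken by name (*T*, *Tbx6*, *Msgn1*, *Meox1*, *Meox2*, *Tcf15*, *Pax3*, *Pax7*, *Foxc1* and *Foxc2*) from a table of 22761 genes. All 10 were found, each once. Their RNA was measured in 36 libraries, 4 in each of 9 groups of sorted renal progenitor cells. Cells of the ureteric bud (UB), progenitors of nephrons (NP) and progenitors of stroma (SP) came ex-fetu from the kidneys of CD1 mice at embryonic day (E) 11.5 and at E12.5, each sample being the pooled kidneys of the embryos of 1 mother. Their counterparts were derived from mouse embryonic stem cells (mESC) in embryoid bodies: iNP and iSP from the E14 line, taken from the same kind of culture, and eUB (iUB in the labels) from a line labelled *Sox9-mCherry*-mESC, each sample being 1 batch of differentiation. NP and iNP were sorted as ITGA8 high and PDGFRA low, SP and iSP as ITGA8 low and PDGFRA high, UB as RET and EpCAM positive and eUB as EpCAM and mCherry positive. NP, SP, iNP and iSP cells had first been depleted of cells with CD31, a surface protein of endothelium, and of cells with EpCAM or RET. iNP and iSP embryoid bodies had received Activin A, CHIR99021, BMP4, retinoic acid, FGF9 and Y27632 in steps, and eUB ones also SB431542, GDNF and Matrigel. The ex-fetu cells were not cultured, but their kidneys were used fresh or after some days of cold storage in a medium with serum. The ES-derived groups differ from the ex-fetu groups in line, strain, age and culture at once, and these cannot be told apart. In libraries made from many cells, fewer cells of a type and less RNA per cell cannot be told apart either.

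As background, mesoderm leaves the primitive streak and is sorted along the axis from the midline outwards into paraxial, intermediate and lateral plate mesoderm. *T* (Brachyury) acts in the streak and the early mesoderm. *Tbx6* and *Msgn1* act in the presomitic mesoderm. *Meox1*, *Meox2* and *Tcf15* (Paraxis) act in the somites that form from it, and *Pax3* and *Pax7* mark the dorsal somite, from which muscle precursors come. *Pax3* and *Pax7* are also genes of the dorsal neural tube and the neural crest. *Foxc1* and *Foxc2* are needed for somites to form and are also known from the mesenchyme around the young kidney. The kidney itself is held to come mainly from intermediate mesoderm, while a paraxial origin has been discussed for its stroma, so the levels of these genes were compared between the sources of each cell type and between NP and SP.

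Levels are given as normalised CPM, that is, reads per gene scaled to the total of each library and between libraries by the study. Each value was a whole number of reads once divided by the value of 1 read, and the libraries held between 13004352 and 52535113 reads on genes. A level of 3 reads, between 0.0605 and 0.223 normalised CPM, was taken as the limit of detection. The summed markers of UB, NP and SP cells were each highest in the 3 groups of that cell type, but the level of *Foxd1*, which marks the renal stroma, was 15.2 in iSP (mean of 4) against 410 in E11.5 SP cells, and that of *Six2*, which marks nephron progenitors, was 139 in iNP against 590 in E11.5 NP cells. For UB cells from embryos, titles and source fields give opposite ages (E11.5 for E12.5 and the reverse), and the titles were used.

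Replicate 1 of the E12.5 UB cells stood apart. Its summed level of 8 NP markers was 520, against 56.5 to 88.8 in the other 3 libraries, and all 8 were higher in it. Its 7 SP markers summed to 530 (185 to 198 in the others), while its 9 UB markers summed to only 2278 (3493 to 3770). Its 5 skeletal muscle markers summed to 40.4 (0.628 to 1.28 in the others), its 5 endothelial markers to 78.6 (2.60 to 5.12) and its 4 markers of pluripotent cells to 20.02 (0.0473 to 0.145). Of the genes described here, 7 were also far higher in it than in the other 3 libraries: *Foxc2* stood at 75.2 (1.80 to 3.62 in the others), *Foxc1* at 59.4 (1.89 to 3.82), *Meox1* at 26.2 (1.37 to 1.98), *Meox2* at 10.1 (0.426 to 0.594), *Pax3* at 7.25 (0.628 to 1.37), *Tcf15* at 3.48 (0.676 to 0.868) and *Pax7* at 1.88 (0.229 to 0.426). The part of other cells in these levels was not tested. Results on E12.5 UB cells from limma and the exact tests are therefore given with and without that library; other tools were run only with it. Replicate 1 of the E12.5 NP and of the E12.5 SP cells also differed from the other 3 of its group. In E12.5 NP its 8 NP markers summed to 1671 (2460 to 2618 in the others) and its 9 UB markers to 112.8 (40.2 to 50.0). In E12.5 SP its 7 SP markers summed to 2096 (3483 to 3681).

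Compared per kilobase of exon, which allows genes to be set side by side, *Foxc2*, *Foxc1*, *Meox1* and *Tcf15* had different shares of the level of the 10 in the 4 mesenchymal groups set side by side here. In E11.5 NP cells *Foxc2* made up 58.0% of the summed level per kb, *Foxc1* 17.4%, *Meox1* 13.8%, *Meox2* 10.1% and *Tcf15* 0.533%. In E11.5 SP cells *Foxc2* made up 59.7%, *Foxc1* 28.8%, *Tcf15* 5.57% and *Meox1* 4.71%. In iSP cells *Meox1* made up 59.4%, *Foxc2* 28.7%, *Tcf15* 9.05%, *Meox2* 1.17% and *Foxc1* 0.804%. In iNP cells *Foxc2* made up 44.8% and *Meox1* 38.8%, followed by *Tcf15* at 7.28%, *Foxc1* at 2.77% and *Meox2* at 2.35%. The summed level per kb was 213 in E11.5 NP, 156 in E11.5 SP, 137 in iNP and 130 in iSP cells, but only 6.54 in E11.5 UB and 2.89 in eUB cells. In E12.5 UB cells it was 17.9, and 3.96 without replicate 1, and there the share of *Foxc2* went from 42.7% to 24.4% and that of *Tcf15* from 8.19% to 19.4% without that library. The shares of the UB groups thus describe small sums.

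**Figure D1:**
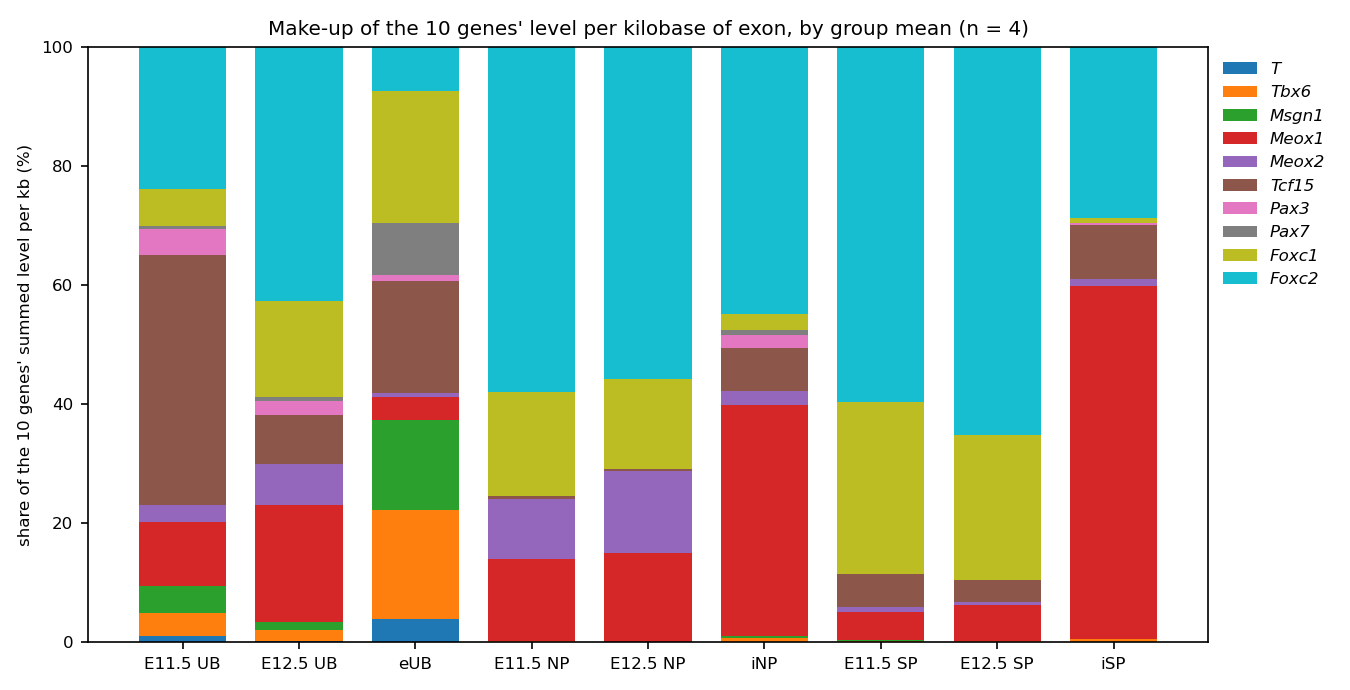
Share (%) of each of the 10 genes in their summed level per kilobase of exon, from the mean of 4 libraries in each of the 9 groups; each bar adds up to 100%. *Foxc2* (top segment) fills 58.0% of the E11.5 NP bar, and *Meox1* (red) fills 59.4% of the iSP bar; the UB bars stand for small sums (6.54 in E11.5 UB, 2.89 in eUB and 17.9 in E12.5 UB cells), and that of E12.5 UB includes replicate 1, without which its sum is 3.96.

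Differences were tested with limma on log2(normalised CPM + 1) across all genes with a level of at least 1 in at least 4 libraries of the comparison, and a gene was called at a Benjamini-Hochberg adjusted p under 0.05. Between iSP and E11.5 SP cells, 6 of the 10 genes passed that filter, of which 3 were higher in iSP and 2 lower; 67.6% of all genes tested were called, 35.5% higher and 32.1% lower. Against E12.5 SP cells 6 passed, and 4 were higher and 2 lower (62.1% of all genes called, 33.3% higher and 28.8% lower). Between iNP and E11.5 NP cells 8 passed, and 5 were higher in iNP and 3 lower (64.7% of all genes called, 35.5% higher and 29.2% lower). Against E12.5 NP cells 8 passed, and again 5 were higher and 3 lower (44.3% of all genes called, 25.6% higher and 18.7% lower). Between eUB and E11.5 UB cells 6 passed, and 2 were higher in eUB and 4 lower (60.5% of all genes called, 32.1% higher and 28.5% lower). Against E12.5 UB cells 4 passed and 1 was lower (44.4% of all genes called, 23.3% higher and 21.2% lower), and without replicate 1 of the latter 1 was higher and 2 were lower, while the number of all genes called went from 6164 to 7251. Genes that passed the filter through 1 group alone had to differ, so these counts are read only beside the share of all genes. Comparisons with E11.5 and with E12.5 cells use the same ES-derived libraries and are not independent.

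**Figure D2:**
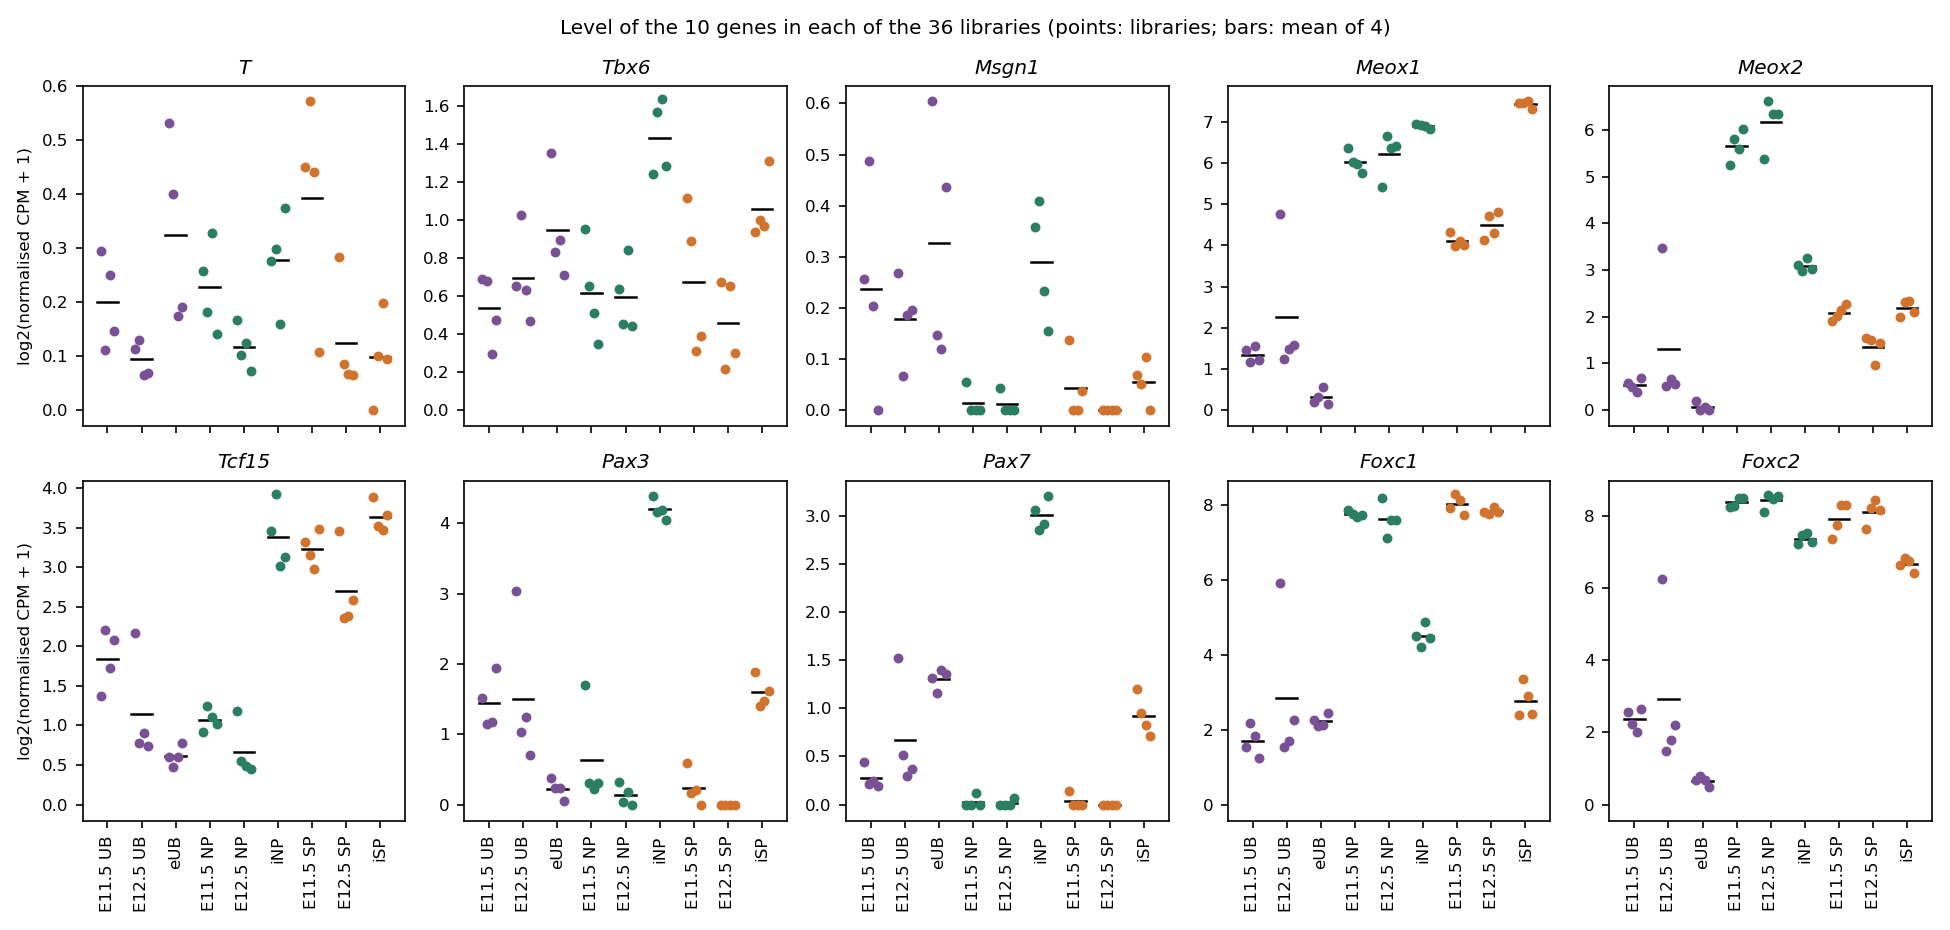
Level of each gene as log2(normalised CPM + 1) (vertical axis, own scale in each panel) in the 9 groups (horizontal axis; purple UB, green NP, orange SP), with 1 point per library and a bar at the mean of 4. *Meox1* is highest in the 4 iSP libraries (157 to 180 normalised CPM), *Foxc1* stands between 139 and 315 in the ex-fetu NP and SP libraries and between 4.25 and 28.1 in iNP and iSP, and *Pax3* and *Pax7* are highest in the 4 iNP libraries; replicate 1 of the E12.5 UB cells is the high point of its group from *Meox1* to *Foxc2*.

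*T* and *Msgn1* were at or near the limit of detection in every group, and *Tbx6* was low. *T* (chr17:8434423-8442496, GRCm38) had at most 20 reads in a library. Its highest group mean was 0.322 ± 0.173 normalised CPM (SD, n = 4) in E11.5 SP cells, followed by 0.259 ± 0.152 in eUB, and each group's libraries overlapped those of the next group in the order of means. eUB libraries (0.446, 0.319, 0.129 and 0.142) lay above the 4 E12.5 UB libraries, which had 1 or 2 reads each (two-sided exact permutation test, n = 4 and 4, p = 0.0286, the smallest that this design allows). Without replicate 1 of the E12.5 UB cells the exact p was 0.0571, the smallest that 4 against 3 libraries allow. *Msgn1* (chr12:11208360-11208972), which encodes a bHLH factor of the presomitic mesoderm, had at most 10 reads in a library. No read of it was counted in the 4 E12.5 SP libraries, which allows a level of up to 0.0605 to 0.163 normalised CPM. In iNP cells *Msgn1* stood at 0.281, 0.328, 0.176 and 0.114 in replicates 1 to 4, while E11.5 NP cells had 1 read in 4 libraries and E12.5 NP cells 1 read in 4. The iNP libraries did not overlap with either, although they held only 5 to 10 reads each (same exact test, p = 0.0286).

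*Tbx6* (chr7:126781483-126785560), a T-box gene of the presomitic mesoderm, had its 3 highest means in the ES-derived cells, although neighbours in the order of the 9 group means overlapped. It stood at 1.37, 1.97, 2.11 and 1.43 in the iNP libraries, against 0.935, 0.571, 0.426 and 0.274 in E11.5 NP and 0.554, 0.368, 0.792 and 0.360 in E12.5 NP cells, so that iNP did not overlap with either group. The difference from E11.5 NP was 0.82 ± 0.16 (SE) on the log2(value + 1) scale (limma, adjusted p = 0.0012), and that from E12.5 NP was 0.84 ± 0.14 (adjusted p = 0.0010); the gene passed the filter through iNP alone. iSP libraries held 0.918, 1.003, 0.960 and 1.49 and eUB libraries 1.56, 0.781, 0.859 and 0.637. Both lay below the filter against their ex-fetu counterparts: *Tbx6* did not overlap between iSP and E12.5 SP cells or between eUB and E11.5 UB cells (exact permutation p = 0.0286 in each), and overlapped between iSP and E11.5 SP cells (p = 0.200) and between eUB and E12.5 UB cells (p = 0.229, and 0.343 without replicate 1 of the latter). In all, 49 such exact tests were run for genes below the filter over 12 comparisons of 2 groups, and 11 gave p = 0.0286, as they do where groups do not overlap; 15.8% of all genes below the filter with a read in the comparison did not overlap either. These p-values were not adjusted.

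*Meox1* (chr11:101877510-101894374), a homeobox gene of the somite, was far higher in iSP than in ex-fetu SP cells. Its levels in iSP were 174, 175, 180 and 157, against 19.2, 15.0, 16.1 and 15.1 in E11.5 SP and 16.5, 25.3, 18.6 and 27.3 in E12.5 SP cells. All 4 iSP libraries lay above every other library of the series. The mean of iSP was 10.5 times that of E11.5 SP cells (difference 3.32 ± 0.10 on the log2 scale, limma adjusted p = 1.9e-08) and 7.83 times that of E12.5 SP cells (2.94 ± 0.15, adjusted p = 4.3e-07). In iNP cells *Meox1* stood at 122, 121, 117 and 112, above E11.5 NP cells (81.1, 64.6, 62.4 and 52.9) by 1.81 times (0.86 ± 0.12, adjusted p = 0.00020, but 0.064 in a fit of all 36 libraries). E12.5 NP cells held 41.8, 99.4, 81.0 and 83.8; iNP was 1.54 times as high (adjusted p = 0.037), a call that was lost when any 1 of 6 libraries was left out (adjusted p of 0.051 to 0.082) and in the fit of all 36 libraries (0.15). *Meox1* was low in UB cells, at 1.74, 1.25, 1.93 and 1.32 in E11.5 UB, and lower in eUB, at 0.149, 0.248, 0.472 and 0.106 (6.39 times, adjusted p = 0.00017); eUB libraries had 2 to 11 reads of it, and the gene passed the filter through E11.5 UB alone, so that it had to differ. Against E12.5 UB cells the difference was -1.96 ± 0.70 (adjusted p = 0.047) and -1.13 without replicate 1 of the latter (adjusted p = 0.00039); with that library kept, leaving out any 1 of 6 others lost the call, and the gene passed the filter through E12.5 UB alone.

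*Meox2* (chr12:37108540-37179534), the other *Meox* gene, was a gene of the ex-fetu NP cells, and it did not follow *Meox1* in the ES-derived cells. Its levels were 37.0, 54.8, 47.2 and 63.7 in E11.5 NP, 40.7, 97.2, 80.4 and 80.0 in E12.5 NP, and 7.60, 6.92, 8.58 and 7.15 in iNP cells. No iNP library reached the lowest ex-fetu NP library. The mean of iNP was 6.70 times lower than that of E11.5 NP cells (-2.57 ± 0.16 on the log2 scale, limma adjusted p = 1.2e-06) and 9.86 times lower than that of E12.5 NP cells (-3.08 ± 0.24, adjusted p = 7.7e-06). In SP cells the gene was low: 2.77, 3.06, 3.42 and 3.85 at E11.5, 1.90, 1.83, 0.956 and 1.70 at E12.5, and 2.996, 4.01, 4.06 and 3.31 in iSP cells. iSP overlapped E11.5 SP cells (difference 0.10 ± 0.13, adjusted p = 0.49) and stood above E12.5 SP cells (0.83 ± 0.16, adjusted p = 0.0013). eUB libraries had 0 to 2 reads of *Meox2*, below the filter, and lay under the E12.5 UB libraries (exact permutation p = 0.0286, and 0.0571 without replicate 1 of the latter).

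*Tcf15* (chr2:152143561-152149097), a bHLH gene needed for the epithelial somite, was a gene of SP rather than NP cells ex-fetu. Its levels were 8.98, 7.90, 6.91 and 10.2 in E11.5 SP and 0.896, 1.38, 1.15 and 1.03 in E11.5 NP cells, with no overlap. In iNP cells it stood at 9.95, 14.2, 7.09 and 7.72, above every NP library of either age. The mean of iNP was 8.75 times that of E11.5 NP cells (2.31 ± 0.19, limma adjusted p = 6.6e-06) and 15.6 times that of E12.5 NP cells, or 23.7 times without replicate 1 of the latter (2.71 ± 0.23, adjusted p = 1.3e-05, with all libraries), whose libraries held 1.26, 0.466, 0.407 and 0.360. iSP cells held 13.9, 10.5, 10.1 and 11.7. This overlapped E11.5 SP cells and was 1.36 times their mean (0.40 ± 0.14, adjusted p = 0.030), a call that was lost without any 1 of 4 libraries, under quantile normalisation and in a fit of all 36 libraries. iSP lay above E12.5 SP cells (10.02, 4.11, 4.21 and 5.001) by 1.97 times (0.94 ± 0.24, adjusted p = 0.0069). In eUB the level was 0.520, 0.390, 0.515 and 0.708, below E11.5 UB cells at 1.58, 3.62, 2.30 and 3.24 (5.03 times, adjusted p = 0.00028), in a gene that passed the filter through E11.5 UB alone.

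*Pax3* and *Pax7*, the paired-box genes of the dorsal somite and the dorsal neural tube, were highest in iNP cells. *Pax3* (chr1:78101267-78197134) stood at 19.98, 17.0, 17.3 and 15.6 in the iNP libraries. E11.5 NP cells held 2.26, 0.235, 0.171 and 0.239 and E12.5 NP cells 0.246, 0.0245, 0.136 and 0, the latter from 15 reads in all. iNP overlapped with neither group. The difference was 3.57 ± 0.30 on the log2 scale against E11.5 NP (limma adjusted p = 6.8e-06), and 3.92 without replicate 1 of E11.5 NP, the library with the high value. That library also had the most *Sox10* (4.75, against 0.513 to 2.26 in the others) and *Foxd3* (2.03, against 0.239 to 0.725), which are genes of the neural crest. The 4 markers of Schwann cells and neural crest summed to 11.65 in it (2.84 to 5.42 in the others). Their part in its *Pax3* level was not tested. Against E12.5 NP the difference was 4.07 ± 0.14 (adjusted p = 5.6e-08), in a gene that passed the filter through iNP alone.

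*Pax7* (chr4:139737062-139833528) stood at 7.35, 6.23, 6.56 and 8.26 in iNP cells, while the E11.5 NP libraries had 2 reads in all and the E12.5 NP libraries 2 reads, so that no fold change is given. Its log2(value + 1) differences were 2.98 ± 0.11 (adjusted p = 5.4e-08) and 2.99 ± 0.12 (adjusted p = 1.2e-07); these depend on the pseudocount, and the gene passed the filter through iNP alone. eUB cells came next, at 1.49, 1.24, 1.63 and 1.56, above E11.5 UB cells at 0.355, 0.161, 0.189 and 0.142 (1.03 ± 0.12, adjusted p = 4.6e-05), and there it passed the filter through eUB alone. Against E12.5 UB cells (1.88, 0.426, 0.229 and 0.290) the difference in *Pax7* was 0.63 ± 0.26 (adjusted p = 0.079), and 0.92 without replicate 1 (adjusted p = 0.00039).

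In iSP cells both *Pax* genes were present at a low level. *Pax3* stood at 2.71, 1.65, 1.77 and 2.06, and *Pax7* at 1.30, 0.931, 0.776 and 0.642, from 19 to 27 reads. E11.5 SP cells held 0.501, 0.122, 0.159 and 0 of *Pax3* and 3 reads of *Pax7* in all, and E12.5 SP cells had no read of either. Against E12.5 SP, iSP was at least 12.6 times higher in *Pax3* and at least 5.62 times higher in *Pax7*, with the highest limit of detection of a library (3 reads) in place of 0. Against E11.5 SP the difference of *Pax3* was 1.35 ± 0.16 (limma adjusted p = 5.2e-05, the gene passing the filter through iSP alone), and that of *Pax7*, below the filter, had an exact permutation p of 0.0286. *Pax3* moved the other way from *Pax7* in eUB: at 0.297, 0.177, 0.172 and 0.0354, it lay 10.5 times below E11.5 UB cells at 1.87, 1.21, 1.25 and 2.84 (adjusted p = 0.00032), from 1 to 5 reads in each eUB library, and passed the filter through E11.5 UB alone. It also lay under the E12.5 UB libraries (exact permutation p = 0.0286, and 0.0571 without replicate 1 of the latter).

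Markers of some other cells were also higher in iNP cells. The 5 skeletal muscle markers summed to 25.9 to 41.7 in the iNP libraries, against 12.8 to 18.9 in E11.5 NP and 4.44 to 12.8 in E12.5 NP libraries, and *Myog*, which drives muscle differentiation, stood at 6.10 to 10.7 in iNP against 0.101 to 0.429 in E11.5 NP cells. The 4 markers of Schwann cells and neural crest summed to 16.7 to 24.2 in iNP, 2.84 to 11.7 in E11.5 NP and 17.8 to 22.6 in eUB cells, against 2.65 to 3.65 in E11.5 UB cells. *Sox10* made up most of that sum in eUB cells (14.1 to 18.9, against 1.21 to 1.93 in E11.5 UB cells), in which *Pax7* was higher and *Pax3* lower than in E11.5 UB cells. The 5 endothelial markers summed to 43.1 to 72.9 in iNP against 8.24 to 24.1 in E11.5 NP cells, both sorted after the depletion of CD31-positive cells. The 4 neuronal markers summed to 26.6 to 49.5 in iNP against 7.25 to 13.5 in E11.5 NP cells, and to 54.4 to 81.9 in iSP against 11.2 to 20.96 in E11.5 SP cells. The 4 markers of pluripotent cells summed to 3.07 to 5.74 in iNP against 0 to 0.103 in E11.5 NP cells, and to 4.03 to 6.14 in iSP against 0.208 to 0.437 in E11.5 SP cells. None of the markers in these 5 lists was at 0 in all iNP libraries. Their part in the levels of *Pax3* and *Pax7* was not tested.

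*Foxc1* (chr13:31806633-31812476), a forkhead gene, fell furthest of the tested genes in iSP cells, against either age, and fell in iNP cells too. Its levels were 241, 315, 279 and 213 in E11.5 SP and 226, 217, 248 and 223 in E12.5 SP cells, and 4.25, 9.31, 6.46 and 4.36 in iSP. The mean of iSP was 43.0 times lower than that of E11.5 SP cells (-5.25 ± 0.22 on the log2 scale, limma adjusted p = 1.3e-07) and 37.5 times lower than that of E12.5 SP cells (-5.07 ± 0.20, adjusted p = 8.7e-08). iNP cells held 21.9, 17.6, 28.1 and 20.8, against 233, 217, 204 and 213 in E11.5 NP and 290, 139, 194 and 193 in E12.5 NP cells. This was 9.80 and 9.21 times lower (-3.25 ± 0.13, adjusted p = 7.9e-08, and -3.12 ± 0.22, adjusted p = 4.1e-06). Among UB cells *Foxc1* was low in both sources, at 1.91, 3.50, 2.57 and 1.35 in E11.5 UB and 3.79, 3.27, 3.39 and 4.50 in eUB; the groups overlapped, and the difference of 0.54 ± 0.19 (adjusted p = 0.034) was lost under 5 of the 7 other settings that tested it and without any 1 of 3 libraries.

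*Foxc2* (chr8:121116171-121118895), its close relative, had a smaller fall. Its levels were 165, 216, 315 and 317 in E11.5 SP, 201, 300, 347 and 286 in E12.5 SP and 99.5, 114, 107 and 85.8 in iSP cells, 2.50 times and 2.80 times below them (-1.27 ± 0.20, adjusted p = 0.00039, and -1.46 ± 0.16, adjusted p = 5e-05). In iNP cells it stood at 150, 177, 185 and 154, against 306, 314, 360 and 365 in E11.5 NP and 279, 384, 358 and 376 in E12.5 NP cells. The iNP means were 2.02 and 2.10 times lower (-1.01 ± 0.11, adjusted p = 2.5e-05, and -1.06 ± 0.14, adjusted p = 0.00022), calls that were lost in the fit of all 36 libraries (0.088 and 0.080). Per kb of exon, *Foxc1* and *Foxc2* stood at 44.8 and 93.0 in E11.5 SP, at 39.1 and 104 in E12.5 SP and at 1.04 and 37.2 in iSP cells. In UB cells *Foxc2* was 7.31 times lower in eUB (0.594, 0.745, 0.601 and 0.390) than in E11.5 UB cells (4.97, 3.74, 3.02 and 5.30; adjusted p = 1.3e-05), and the gene passed the filter through E11.5 UB alone. Against E12.5 UB cells its difference of -2.28 ± 0.92 did not pass the threshold (adjusted p = 0.073), and without replicate 1 it was -1.17 (adjusted p = 0.00092); here it passed the filter through E12.5 UB alone.

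For *Meox2* and *Foxc1*, picked because both were high in ex-fetu NP and low in iNP cells, the 250 bases before their start sites are printed, 5′ to 3′, from RefSeq (GRCm38.p6). The set of promoter sequences used here held 6 of the 10 genes (not *Meox1*, *Tcf15*, *Pax3* and *Foxc2*). Capitals mark matches on either strand to any of these motifs: a T-box core (AGGTGT), a homeobox core (TAATTA), a forkhead core (GTAAACA) and the TATA box (TATAAA).
Meox2, chr12:37108290-37108539, plus strand: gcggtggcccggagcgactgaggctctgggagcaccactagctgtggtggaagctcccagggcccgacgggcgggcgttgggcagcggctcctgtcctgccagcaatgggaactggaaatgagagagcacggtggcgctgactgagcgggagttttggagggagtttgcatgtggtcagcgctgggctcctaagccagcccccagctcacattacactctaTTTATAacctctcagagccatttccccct
Foxc1, chr13:31806396-31806645, plus strand: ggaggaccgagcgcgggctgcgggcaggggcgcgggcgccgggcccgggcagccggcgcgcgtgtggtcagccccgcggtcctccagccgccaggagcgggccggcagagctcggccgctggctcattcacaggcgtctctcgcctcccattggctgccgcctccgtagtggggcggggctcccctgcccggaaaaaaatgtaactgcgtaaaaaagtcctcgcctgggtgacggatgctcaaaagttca
The *Meox2* stretch holds 1 match, TTTATA, which is TATAAA on the other strand, and 12 CG dinucleotides. The *Foxc1* stretch holds no match and 29 CG dinucleotides, and 94.1% of the 32851 promoters in the table have as many or fewer; its last 13 bases lie inside the gene as GENCODE vM21 draws it. Over all promoters the median was 6 CG dinucleotides, and the TATA box, the T-box core, the homeobox core and the forkhead core were found in 12.4%, 11.8%, 4.84% and 3.17% of promoters. These matches describe the letters of the window only.

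**Figure D3:**
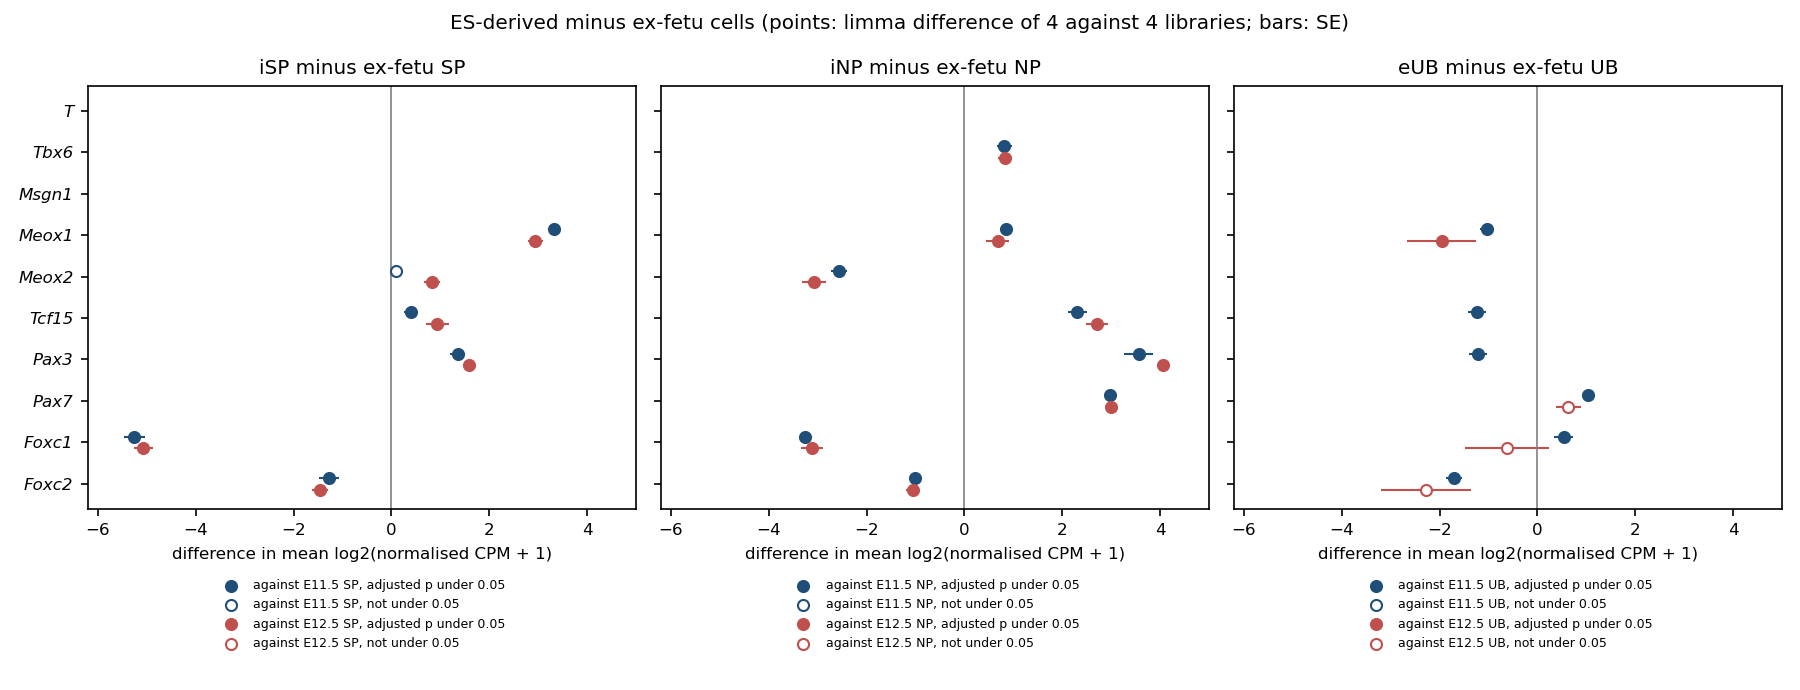
Difference between ES-derived and ex-fetu cells (horizontal axis, mean log2(normalised CPM + 1), limma, with its SE as a bar; n = 4 and 4) for each gene that passed the filter, against E11.5 (blue) and E12.5 (red) cells; filled points have an adjusted p under 0.05. *Foxc1* lies furthest to the left in iSP (-5.25 against E11.5 SP), *Pax3* furthest to the right in iNP (3.57 against E11.5 NP), and the wide red bars of eUB belong to the comparison with the 4 E12.5 UB libraries, replicate 1 included.

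The contrast between NP and SP cells was then compared between sources. Ex-fetu, 5 of the 10 genes passed the filter at each age. At E11.5, 2 were higher in NP and 1 was lower (43.1% of all genes called, 21.0% higher and 22.2% lower), and at E12.5 it was 2 and 1 again (34.8% of all genes called, 17.0% higher and 17.8% lower). *Meox1* was 3.995 times as high in NP as in SP at E11.5 (1.92 ± 0.14, limma adjusted p = 5.6e-06) and 3.49 times at E12.5 (1.72 ± 0.27, adjusted p = 0.00091). *Meox2* was 15.5 times as high in NP at E11.5 (3.58 ± 0.17, adjusted p = 4.5e-07) and 46.7 times at E12.5 (4.81 ± 0.27, adjusted p = 1.4e-06). *Tcf15* was 7.64 times lower in NP at E11.5 and 9.35 times lower at E12.5, or 14.2 times without replicate 1 of the E12.5 NP cells (-2.16 ± 0.14 and -2.03 ± 0.27, adjusted p = 2.9e-06 and 0.00032, with all libraries). *Foxc1* and *Foxc2* overlapped between NP and SP at both ages. The same-numbered E12.5 NP and SP libraries deviated together, and with the number as a block 7961 genes were called in place of 4789 and *Foxc2* was higher in NP (difference 0.32, adjusted p = 0.017, against 0.21 without the block). Without replicate 4 of the E11.5 SP cells, *Foxc1* was lower (-0.35, adjusted p = 0.017) and *Foxc2* higher (0.58, adjusted p = 0.029) in NP cells at E11.5 too.

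Among the ES-derived cells 8 of the genes passed, of which 5 were higher in iNP than in iSP and 1 was lower (30.7% of all genes called, 16.5% higher and 14.2% lower). *Meox1* was lower in iNP (1.46 times, adjusted p = 0.00045), the opposite of its order ex-fetu, while *Meox2* was 2.10 times higher in iNP (0.90 ± 0.12, adjusted p = 0.00027). *Pax3* was 8.54 times (adjusted p = 8.7e-07), *Pax7* 7.77 times (3.3e-06), *Foxc1* 3.63 times (0.00030) and *Foxc2* 1.64 times (9e-04) as high in iNP, all by limma. *Tcf15* overlapped between the pair (-0.26 ± 0.20, adjusted p = 0.36) and was lower in iNP without its replicate 2 (-0.44, adjusted p = 0.018). *Tbx6* (0.38 ± 0.14, adjusted p = 0.064) was higher in iNP without replicate 4 of iSP (0.46, adjusted p = 0.039). In a fit of all 36 libraries, *Meox1*, *Meox2* and *Foxc2* did not pass the threshold here (adjusted p = 0.35, 0.061 and 0.33).

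The difference of these differences, ES-derived minus E11.5, was tested in 1 fit of the 16 libraries, in which 4 of the 8 genes that passed were higher and 2 lower (29.3% of all genes called, 17.4% higher and 11.9% lower). It was negative for *Meox2* (-2.67 ± 0.21, limma adjusted p = 1e-07) and *Meox1* (-2.46 ± 0.16, adjusted p = 1.3e-08). It was positive for *Tcf15* (1.90 ± 0.25, adjusted p = 2.3e-05), *Foxc1* (2.0 ± 0.27, adjusted p = 2.9e-05), *Pax3* (2.21 ± 0.36, adjusted p = 0.00019) and *Pax7* (2.09 ± 0.16, adjusted p = 7.3e-08). *Pax3* and *Pax7* did not pass with edgeR on the recovered reads (adjusted p = 0.46 and 0.14), and *Pax3* not with a pseudocount of 0.1 (adjusted p = 0.085); their E11.5 levels rest on few reads. *Foxc2* (0.26 ± 0.24, adjusted p = 0.47) and *Tbx6* (0.44 ± 0.25, adjusted p = 0.22) did not pass. The 4 other genes that passed, *Meox1*, *Meox2*, *Tcf15* and *Foxc1*, kept their call and direction in each setting that tested them.

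**Figure D4:**
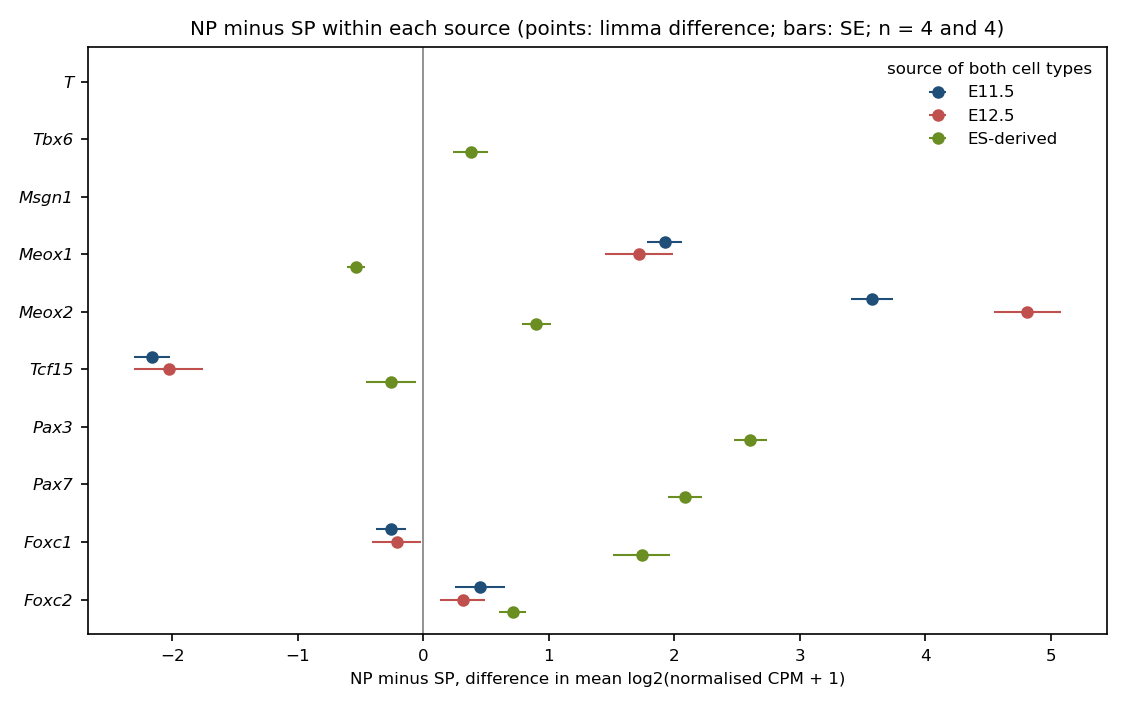
Difference between NP and SP cells (horizontal axis, mean log2(normalised CPM + 1), limma, SE as a bar, n = 4 and 4) for each gene that passed the filter, at E11.5 (blue), at E12.5 (red) and between iNP and iSP (green). *Meox1* lies to the right of 0 ex-fetu (1.92 and 1.72) and to the left in the ES-derived cells (-0.54), *Foxc1* lies at 1.74 in the ES-derived cells, and *T* and *Msgn1* have no point because they did not pass the filter.

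Between UB and mesenchymal cells of the same age, or both ES-derived, *Meox1*, *Meox2*, *Foxc1* and *Foxc2* were lower in UB. The eUB cells came from another line and culture than iNP and iSP cells, which cannot be told apart from cell type there. In E11.5 UB cells, 6 of the 10 genes passed the filter against NP and SP together, and 4 were lower and 1 higher (56.4% of all genes called, 26.9% higher and 29.5% lower). *Foxc1* was 103 times lower, *Foxc2* 69.2, *Meox2* 60.2 and *Meox1* 26.2 times lower, and *Pax3* was 3.89 times higher, or 8.74 times without replicate 1 of the E11.5 NP cells (limma adjusted p of 1.2e-12, 5.7e-12, 9.2e-11, 1.4e-11 and 0.0044 with all libraries). At E12.5, 5 passed and 4 were lower in UB (40.3% of all genes called, 20.9% higher and 19.4% lower). The differences there were -4.88 (*Foxc1*), -5.35 (*Foxc2*), -3.08 (*Meox1*) and -2.46 (*Meox2*) on the log2 scale, and without replicate 1 they were -5.90, -6.45, -3.92 and -3.18. *Meox2* did not pass there with edgeR, replicate 1 included (adjusted p = 0.072). *Tcf15*, at -0.53 ± 0.29 (adjusted p = 0.17), was called without replicate 1 (-0.87, adjusted p = 0.0098). Against iNP and iSP together, 8 passed in eUB and 7 were lower (62.9% of all genes called, 30.3% higher and 32.6% lower): *Meox1* was 594 and *Foxc2* 230 times lower (adjusted p = 8.3e-15 and 2.5e-14), and *Tbx6* did not pass (-0.30 ± 0.13, adjusted p = 0.067) unless replicate 1 of eUB was left out (-0.43, adjusted p = 0.0059). The eUB libraries held only 2 to 11 reads of *Meox1*, and 2 of the 4 were above the limit of detection.

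Few of these genes were called between the ages. Between E12.5 and E11.5 UB cells 5 of the genes passed the filter and none was called (26.5% of all genes called by limma, 14.2% higher and 12.3% lower; 0 of the 5 had an unadjusted p under 0.05, and edgeR called none either), and without replicate 1 of the E12.5 UB cells *Tcf15* and *Foxc2* were lower at E12.5 (-1.04, adjusted p = 0.0012, and -0.54, adjusted p = 0.045). These are the ages of the titles, and with those of the source fields both directions would turn. In SP cells 5 passed and 1 was called (8.52% of all genes called, 3.73% higher and 4.80% lower), *Meox2*, which was lower at E12.5 (-0.73 ± 0.17, adjusted p = 0.030). That call was lost when any 1 of 6 libraries was left out. Without replicate 1 of the E12.5 SP cells, *Tcf15* was also lower at E12.5 (-0.80, adjusted p = 0.0092). In NP cells 5 passed and none was called (6.34% of all genes called, 2.74% higher and 3.59% lower; *Tcf15*, 1 of the 5, had an unadjusted p under 0.05, 0.0447, and edgeR called none). Without replicate 1 of the E12.5 NP cells, *Meox2* was higher (0.77, adjusted p = 0.020) and *Tcf15* lower (-0.58, adjusted p = 0.018) at E12.5. Those replicates 1 are the libraries with the shifted NP, SP and UB markers given above, whose part in these calls was not tested.

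Other genes of these territories, in lists made from textbook knowledge, were set beside the 10. As above, a gene with a level of 1 or more in 1 group alone had to differ, and such genes are counted apart. Of 18 genes of somite derivatives (sclerotome, dermomyotome, muscle), 12 were tested between iSP and E11.5 SP cells, and 8 were higher in iSP and 1 lower; their median difference was 1.35, against 0.04 over all genes tested, of which 35.5% were higher and 32.1% lower. Of the 8, 2 passed the filter through iSP alone, and the median of the other 10 tested was 1.02. *Pax1*, a sclerotome gene, stood at 27.3 in iSP against 1.09 in E11.5 SP cells, *Lbx1* at 1.75 against 0.0677 and *Myog* at 3.54 against no read, while *Tbx18* fell from 104 to 16.4. *Lbx1* and *Myog* are the 2 that passed through iSP alone. Of 19 streak and presomitic genes, 5 were tested there, and 2 were higher (*Hes7*, *Dll1*) and 3 lower (*Rspo3*, *Lfng*, *Evx1*; 1 of the 3 through E11.5 SP alone), beside the same shares of all genes. Between iNP and E11.5 NP cells, 12 of the 19 were tested, and 9 were higher and 3 lower (35.5% of all genes were higher and 29.2% lower). Of these, 5 of the 9 and 1 of the 3 had passed the filter through 1 group alone, which leaves 4 higher and 2 lower. The Notch ligand gene *Dll1* stood at 66.3 against 5.73 and *Wnt3a*, a signal of the streak and tail bud, at 5.15 against 0.0279, while *Rspo3* fell from 44.8 to 18.2. *Wnt3a* is among the genes that passed through iNP alone. Against E12.5 NP cells 12 streak and presomitic genes were tested, and 7 were higher and 3 lower (25.6% and 18.7% of all genes). Without those that passed through 1 group alone, 2 were higher and 2 lower. Of the somite genes, 13 were tested against E11.5 NP cells, and 9 were higher in iNP and 3 lower (35.5% and 29.2% of all genes). The smallest p of the higher ones belonged to *Dmrt2*, *Twist1* and *Myog*, and the lower ones were *Eya2*, *Uncx* and *Scx*. Of the 9, 6 had passed through iNP alone, *Dmrt2* and *Myog* among them, which leaves 3 higher and 3 lower. Against E12.5 NP cells 10 of 13 were higher and 3 lower (25.6% and 18.7% of all genes). Of the 10, 5 had passed through iNP alone, which leaves 5 higher and 3 lower.

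Of 20 genes of the neural crest and dorsal neural tube, 19 were tested between iNP and E11.5 NP cells, and 15 were higher in iNP (35.5% of all genes were higher by the same rule) while the other 4 did not pass. Of the 15, 8 had passed the filter through iNP alone, which leaves 7 higher and 0 lower of 11. *Zic1* stood at 66.0 against 0.0385, *Sox1* at 5.96 against 0.0195 and *Lmx1a* at 5.34 against 0.107. These genes are all among those that passed the filter through iNP alone. Against E12.5 NP cells 16 of 19 tested were higher and 0 lower (25.6% and 18.7% of all genes). Of the 16, 14 had passed through iNP alone, which leaves 2 higher and 0 lower of 5. In iSP cells 6 of the list were tested against E11.5 SP cells, and 2 were higher (*Zic1* at 233 against 0.0933, *Zic2* at 2.05 against 0.205, both through iSP alone) and 1 lower (*Ets1*), beside 35.5% and 32.1% of all genes. In eUB cells 10 were tested against E11.5 UB cells, and 4 were higher (3 of them through eUB alone) and 4 lower, beside 32.1% and 28.5% of all genes. Among 13 relatives of the *Foxc*, *Meox*, *Pax* and T-box genes, *Pax1* and *Tbx18* included, 5 of 12 tested were higher in iSP than in E11.5 SP cells and 5 lower, 1 of them through E11.5 SP alone (35.5% and 32.1% of all genes), and the forkhead genes *Foxd1* (15.2 against 410) and *Foxd2* (3.63 against 34.6) were among the lower ones.

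Over the 36 libraries, the genes whose log2 level was most like that of *Foxc2* were *Kcnh2*, *Des* and *Wt1* (Pearson r = 0.989, 0.987 and 0.985 among 16001 genes). For *Foxc1* they were *Arhgap20*, *Fam46a* and *Taf9b* (0.951, 0.949 and 0.941). For *Meox1* they were *Asic2*, *Frzb* and *Fzd2* (0.974, 0.955 and 0.945), and for *Meox2* *Cdhr1*, *Rspo1* and *Ppm1e* (0.969, 0.968 and 0.968). For *Pax3* they were *Sox2*, *Lbx1* and *Lhx5* (0.926, 0.926 and 0.923), and for *Tcf15* *Ptges*, *Nptxr* and *Edn3* (0.922, 0.922 and 0.911). Within the 10, *Meox1* was closest to *Foxc2* (0.857), *Foxc1* to *Foxc2* (0.846) and *Pax3* to *Pax7* (0.835). The 36 points fall into 9 groups of 4 and share those groups, so these values describe the pattern across groups only.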

How the data were processed

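RNA of sorted cells was sequenced from a stranded mRNA library kit. Cutadapt (trimming), STAR (alignment) and edgeR were the authors' tools; the genome is written as GRCh38 in the sources although all gene identifiers are of the mouse. The deposited values are CPM, that is, counts scaled to each library's total and then by edgeR's normalisation factors, a normalised signal in which every value was a whole number of reads (100% within 0.001 reads), so reads were recovered and 3 reads were taken as the floor. Floors and reads cover counting error only.

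The 10 genes were matched by symbol, and 99.48% of identifiers were found in GENCODE vM21 (GRCm38), which gave positions and exon lengths. No exonic base of the 10 was shared with another gene. Each comparison used the libraries of its own groups in limma 3.58.1 (R 4.3.3; lmFit, eBayes with trend) on log2(value + 1), with genes of at least 1 in at least 4 libraries and Benjamini-Hochberg adjustment over all of them. Fold changes on this scale understate the change of low genes, so ratios of means are given too. Genes below the filter were tested by a two-sided exact permutation test (scipy 1.17.1). Alternatives were a pseudocount of 0.1, no filter, a filter at 5, quantile and upper-quartile scaling, edgeR 4.0.16 (quasi-likelihood) on the recovered reads, 1 fit of all 36 libraries, the replicate number as a block, exchanged UB ages and leaving out each library. The fits were tested on simulated data. Named beyond the 10 were the 3 genes of a list with the smallest p in each direction and the 3 most like each gene over 36 libraries. The genes and lists were chosen with earlier results of these data known.

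Replicates were separate litters or batches. Same-numbered libraries deviated together, with each of 4 correlations between 0.543 and 0.700, in E12.5 NP against SP cells, and nothing in the labels says why. In no other pair of groups checked (the same cell type between sources and ages, NP, SP and UB within a source) were all 4 over 0.1; in E12.5 UB cells they were -0.0716 to 0.216 against NP and 0.0164 to 0.176 against SP.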

Additional observations from a re-analysis of the deposited data

Results flagged for a closer look

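In 11 of the 54 sets (a gene in a group of 4 libraries, with a level of at least 1 in some library), 1 library stood further from the others than Dixon's 95% limit for 4 samples; chance gives about 1 in 20, here 2.7. Of these, 7 were in replicate 1 of the E12.5 UB cells: *Foxc2* at 75.24 normalised CPM, *Foxc1* at 59.44, *Meox1* at 26.2, *Meox2* at 10.11, *Pax3* at 7.246, *Tcf15* at 3.48 and *Pax7* at 1.883. The same library had high NP, SP, endothelial, muscle and pluripotent markers, whose part was not tested.

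The other 4 were *Tcf15* in replicate 1 of the E12.5 NP cells (1.262, against 0.360 to 0.466), *Tcf15* in replicate 1 of the E12.5 SP cells (10.02, against 4.11 to 5.001), *Pax3* in replicate 1 of the E11.5 NP cells (2.26, against 0.171 to 0.239) and *Tbx6* in replicate 4 of the iSP cells (1.487, against 0.918 to 1.003).

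The difference between NP and SP cells was not the same in the ES-derived as in the E11.5 cells for 6 genes, by the interaction term of limma: *Meox1* (-2.461 on the log2 scale), *Meox2* (-2.674), *Tcf15* (1.904), *Foxc1* (2.0), *Pax3* (2.212) and *Pax7* (2.092). The values of *Pax3* and *Pax7* rest on few reads in E11.5 cells and did not pass with edgeR.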

How the results depend on the processing

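Of 1690 alternative values for 98 results on single genes, 1609 kept their direction and side of the threshold, 48 lost and 23 gained the call, and 10 turned the direction; the cause was not tested.

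The number of the 10 genes called moved as follows. Between eUB and E11.5 UB it was 0 with the filter at 5, which none of the genes passed (6 as reported). Between eUB and E12.5 UB it was 1 as reported, 2 with a pseudocount of 0.1 and with edgeR, 3 in the fit of all 36 libraries and 0 with no filter, with the filter at 5 (which no gene passed) and with the replicate block. Between the ages in SP it was 1 as reported and 0 with no filter, with the filter at 5, in the fit of all 36 libraries and with the block. Between iNP and iSP it was 3 in the fit of all 36 libraries (6 as reported), and between E12.5 UB and mesenchymal cells 7 with no filter (4 as reported). The number of all genes called moved from 3648 to 2365 with the block between the UB ages, from 1162 to 762 (filter at 5) and 2987 (fit of all 36) between the SP ages, from 850 to 469 and 1528 between the NP ages, and from 4789 to 7961 with the block between E12.5 NP and SP cells, where the numbers pair the samples.

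With 1 library left out at a time, 0 to 3 of the 10 genes were called between eUB and E12.5 UB, 3 to 5 between E11.5 NP and SP, and 0 to 2 between the ages of each cell type. The number of all genes ranged from 2359 (without replicate 1 of E11.5 UB) to 6031 (without replicate 1 of E12.5 UB) between the UB ages, from 420 (without replicate 4 of E12.5 SP) to 2943 (without replicate 1 of E12.5 SP) between the SP ages, and from 188 (without replicate 3 of E11.5 NP) to 2289 (without replicate 1 of E12.5 NP) between the NP ages.

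Directions turned for *Foxc1* in eUB against E12.5 UB without replicate 1 of the latter (0.40, adjusted p = 0.11; -1.06 to 0.40 over the libraries left out), for *Tcf15* in E12.5 UB against mesenchymal cells with the UB ages exchanged (0.16, adjusted p = 0.59), and between the UB ages for *Foxc2* without replicate 1 of E12.5 UB (-0.54; range to 1.05) and for *Pax3* (-0.047 with a pseudocount of 0.1, -0.04 and -0.03 without replicates 2 and 3 of E11.5 UB, -0.45 without replicate 1 of E12.5 UB; range to 0.33). Differences near 0 also changed sign between the SP ages for *Foxc2* without replicate 1 of E11.5 SP (-0.00014; range to 0.34), and between the NP ages without replicate 2 of E12.5 NP for *Foxc1* (0.031; range from -0.32) and *Foxc2* (-0.00081; range to 0.15).

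The replicate block also ended the calls of *Foxc1* in eUB against E11.5 UB (adjusted p = 0.063), *Meox1* in eUB against E12.5 UB (0.052) and *Meox2* between the SP ages (0.076), and called *Foxc2* between E11.5 NP and SP (0.026) and *Tcf15* in E12.5 UB against mesenchymal cells (0.0069); outside E12.5 NP and SP cells no pair of groups checked met the test of pairing. With the UB ages exchanged, *Tcf15* was lower in the UB cells then taken as E11.5 (-1.01, adjusted p = 0.0026). Depth limits *T* and *Msgn1* in each group and *Pax7* in ex-fetu NP and SP cells, whose libraries held few reads.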

Other observations

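Genes of the neighbouring mesoderm were set beside the 10. Of 14 lateral plate genes, 11 were tested between iSP and E11.5 SP cells, and 7 were lower in iSP and 2 higher, with a median difference of -0.88 (0.04 over all genes, of which 35.5% were higher and 32.1% lower). Of the 7, 1 passed the filter through E11.5 SP alone, and the median of the other 10 tested was -0.74. Against E12.5 SP cells 9 were tested, and 5 were higher in iSP and 1 lower (33.3% of all genes higher and 28.8% lower). Of those 5, 3 passed through iSP alone, which leaves 2 higher and 1 lower of 6, with a median of 0.31 (1.01 over the 9). Between E11.5 NP and SP cells 10 were tested, and 9 were lower in NP (median -2.28; 22.2% of all genes were lower and 21.0% higher); 1 of the 9 passed through SP alone, and the median of the other 9 tested was -1.92.

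All 11 intermediate mesoderm genes were tested between iNP and ex-fetu NP cells. Against E11.5 NP cells 5 were higher in iNP and 5 lower, with a median of 1.06 (35.5% and 29.2% of all genes); 1 of the higher genes passed through iNP alone, and the other 10 had a median of 0.23. Against E12.5 NP cells 4 were higher and 6 lower, with a median of -0.85 (25.6% and 18.7% of all genes). In iSP cells 4 were higher and 1 was lower than in E11.5 SP cells (median 0.52; 35.5% and 32.1% of all genes), and 9 (1 of them through iSP alone) were higher and 1 lower than in E12.5 SP cells (median 1.71; 33.3% and 28.8% of all genes). Between iNP and iSP cells, 8 of these 11 were higher in iNP and 2 lower (median 1.76; 16.5% of all genes were higher and 14.2% lower). Of 19 streak and presomitic genes, 11 were tested between iNP and iSP cells, and 10 were higher in iNP, 5 of them through iNP alone.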
